A study of Mus musculus with 3 samples.

Results

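A set of 34 interferon-stimulated genes was read in sorted lymphoma cells of the pBIC mouse. The set was chosen by gene symbol from genes known to respond to type I interferon, and all 34 symbols were found, once each, among the 37646 genes of every library. Messenger RNA was counted in 3 splenic lymphomas, 1 library each, and all belong to 1 group. The mice were C57BL/6 with the genotype p53F/F, Blimp1F/F, IKK2castopF/stopF and Cg1Cre/+, and their age is not given in the sources used here. In this model Cre from the immunoglobulin Cγ1 locus deletes floxed Trp53 and Prdm1 and switches on a constitutively active IKK2, together with a GFP reporter. The labels class the model as the activated B cell subtype of diffuse large B cell lymphoma. Cre from this locus acts in B cells that transcribe it, and every library carries all these alleles, so the deletions could not be set against unrecombined cells here. Cells positive for B220 and GFP were sorted from spleens of moribund mice. Germinal centre B cells of immunised mice, which the design names as controls, were not analysed here, so no value below is a change from normal B cells.

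Type I interferons bind the receptor IFNAR, whose kinases JAK1 and TYK2 phosphorylate STAT proteins. STAT2 and IRF9 are parts of the complex ISGF3, which binds interferon-stimulated response elements in the promoters of its target genes. The products of these genes sense viral nucleic acid, block translation or degrade RNA, and several of them, such as STAT2, IRF9 and IRF7, feed back on the pathway itself. In B cells, type I interferon is known to lower the threshold for activation and to promote antibody responses.

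The core of the response element, GAAA and GAAA with any 2 bases between them, was searched on both strands in promoters from RefSeq (GRCm38.p6), each running from 250 bases before to 50 bases after a gene's start. A promoter was matched by symbol for 25 of the 34 genes. Of these, 4 had more than 1 promoter, and a gene was counted if any of its promoters held a match. No promoter was matched for Dhx58, Ifi204, Mx1, Mx2, Oas2, Parp14, Rtp4, Usp18 and Zbp1. The element was found in 13 of the 25, which is 52%, against 3.99% of the 27025 genes in the table. The 8 stretches below, 60 bases each, are read 5′ to 3′ on the gene's strand, with the matched bases in capitals. Oas3, Trim30a, Ifit1, Stat2 and Bst2 are shown because their transcripts were among the most abundant or most variable of the genes with an element before the start. Isg15, Ifit3 and Ifit3b were added after their values were seen, as the gene with most matches and as a duplicated pair.
Oas3 (chr5:120777700-120777759, reverse strand): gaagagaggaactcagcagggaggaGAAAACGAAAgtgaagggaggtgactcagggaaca
Trim30a (chr7:104465195-104465254, reverse strand): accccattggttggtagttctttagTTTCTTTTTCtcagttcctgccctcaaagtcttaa
Ifit1 (chr19:34640769-34640828, forward strand): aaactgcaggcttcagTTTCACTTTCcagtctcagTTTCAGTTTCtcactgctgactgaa
Stat2 (chr10:128270251-128270310, forward strand): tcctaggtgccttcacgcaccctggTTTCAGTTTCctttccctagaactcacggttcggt
Bst2 (chr8:71537565-71537624, reverse strand): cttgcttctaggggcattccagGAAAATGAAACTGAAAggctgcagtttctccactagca
Isg15 (chr4:156200856-156200915, reverse strand): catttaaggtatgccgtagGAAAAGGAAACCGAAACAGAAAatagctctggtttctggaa
Ifit3 (chr19:34583365-34583424, forward strand): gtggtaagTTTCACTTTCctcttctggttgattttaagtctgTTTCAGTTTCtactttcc
Ifit3b (chr19:34607761-34607820, forward strand): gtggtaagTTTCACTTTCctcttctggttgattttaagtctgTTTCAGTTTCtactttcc

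Isg15 held 3 overlapping matches, from 78 to 57 bases before its start (positions -78 to -57), and Bst2 held 2 overlapping matches. The stretches of Ifit3 and Ifit3b had 0 differences over 60 bases. With the stricter core, GAAAC and GAAA with any 1 base between them, the share was 32% of the 25 genes against 0.792% of all genes. When only the 250 bases before the start were searched it was 40% against 3.46%. The GAS motif TTCNNNGAA was found in 24% of the 25 genes against 9.55% of all. The kappa B motif was found in 20% against 9.55%. In Bst2 the GAS match overlaps both the kappa B match and the first response element. These are matches of letters, and binding was not measured.

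**Figure D1:**
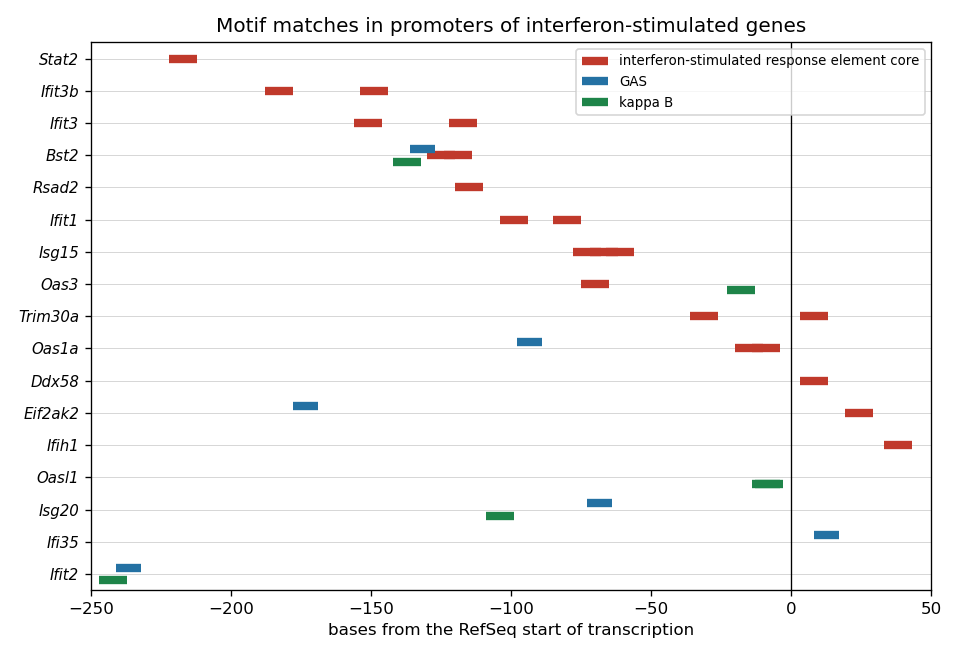
Positions of motif matches in the promoters of the 17 matched interferon-stimulated genes that hold any, with bases from the RefSeq start on the x axis and 1 gene per line. Red bars mark the response element core, blue bars GAS and green bars kappa B. Stat2 has the element farthest from its start, at -222. The response elements of Ddx58, Eif2ak2 and Ifih1 lie after the start. So do the GAS match of Ifi35 and the response element in a further promoter of Trim30a.

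The libraries held 15022902 to 15141009 counts, and levels are given as CPM, the count scaled to a common library total. A gene with no count could still be present at 3 counts, which is 0.198 to 0.200 CPM. Intervals and floors cover counting error only, since the libraries carry no molecular identifiers. No pair of libraries agreed within sampling noise, with a chi-square per degree of freedom of 67.6 to 74.0. Nothing in the labels says outright that the libraries come from separate animals, so p-values measure the spread between these samples. All 10 B cell markers read exceeded 1 CPM in every tumour. By mean CPM they ran from Ebf1, with 14.2, 4.66 and 2.32 CPM in tumours 1, 2 and 3, to Cd37, with 905, 654 and 492 CPM. This threshold alone does not show B cell identity, since 6 of 10 T and natural killer cell markers reached it too. The median level was 448 CPM over the B cell markers and 3.57 CPM over the T and natural killer cell markers. By its median level, the set lay above all genes with a count and below the genes that passed a filter for low counts. Of 34 genes 26 reached 1 CPM in every tumour, where 42.2% of the 25500 genes with a count did. Of 34 genes 12, or 35.3%, reached 10 CPM in every tumour, near the 30.5% of genes with a count. The median over the 34 genes was 12.4 CPM, or 6.20 CPM without tumour 1. It was 0.664 CPM over genes with a count, many of them nearly silent, and 33.4 CPM over the 11478 genes that passed the filter.

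Of the 3 transcription factors of the pathway, Stat2 and Irf9 ranked 5 and 7 among the 34 genes by mean TPM, a level per length. Stat2 (chromosome 10, 128270559 to 128292849) encodes the STAT subunit that is particular to the type I and type III pathways. It had 93.5, 48.5 and 74.96 CPM in tumours 1, 2 and 3, a mean of 72.3 ± 22.6 (SD, n = 3). Irf9 (chromosome 14, 55603571 to 55610030), the DNA-binding subunit of ISGF3, had 73.0, 62.8 and 47.0 CPM, a mean of 60.9 ± 13.1. Both were highest in tumour 1 and spanned less than 2-fold. Irf7 (chromosome 7, 141262706 to 141266481), which amplifies interferon-alpha transcription, was lower with 11.9, 6.59 and 5.64 CPM. Each gene's spread over the 3 tumours was tested against the spread usual at its abundance (edgeR, one-sided, Benjamini-Hochberg adjustment over 11478 genes), and the adjusted p was 0.997 for Stat2, Irf9 and Irf7.

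Genes of the receptor and of the kinases below it were present in every tumour. All 9 genes of a list of receptor and proximal signalling genes exceeded 1 CPM in each. Ifnar1 had 76.0, 53.1 and 101 CPM and Ifnar2 had 38.2, 31.0 and 55.3 CPM, so both receptor chains were highest in tumour 3. Ptpn6, which encodes the phosphatase SHP-1, had 446, 556 and 279 CPM, and the kinase gene Jak1 had 223, 148 and 181 CPM.

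Transcripts of the interferons themselves were not detectable at this depth. Of 20 type I and type III interferon genes listed, 15 were in the files, and Ifna9, Ifna12, Ifna15, Ifna16 and Ifne were not analysed here. Of these 15, 11 had no count in any tumour, Ifnb1 among them. The others stayed under the floor in every tumour, with at most 2 counts, for Ifnk. Alpha interferon genes are close copies of each other, so reads that map to several of them may have been lost.

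All 3 RNA sensors exceeded 1 CPM in every tumour and were highest in tumour 1. Ifih1 (chromosome 2, 62595798 to 62646255), which encodes MDA5 and binds long double-stranded RNA, had 39.9, 21.1 and 14.6 CPM. Dhx58 (LGP2), a helicase that modulates the other sensors, had 33.0, 22.4 and 14.3 CPM. Ddx58 (chromosome 4, 40203773 to 40239828), which encodes RIG-I, had 29.1, 7.32 and 9.29 CPM, so tumour 1 exceeded the others by 3.98-fold and 3.14-fold. Its edgeR unadjusted p was 0.029, and the adjusted p was 0.683.

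Zbp1 (chromosome 2, 173206612 to 173218923), a sensor of Z-form nucleic acid that can start necroptosis, ranked 3 among the 34 genes by mean TPM. It had 113, 89.1 and 20.5 CPM in tumours 1, 2 and 3. Tumours 1 and 2 thus lay close together, and tumour 2 exceeded tumour 3 by 4.35-fold (edgeR unadjusted p = 0.001, adjusted p = 0.166). Ifi204, a DNA sensor of the HIN-200 family, had 0.396, 0.998 and 0.265 CPM from 6, 15 and 4 counts. Of its 50-base windows, the length of a read, 20.0% also occur in another gene, mainly Ifi211, so its count is uncertain.

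ISG15 is a ubiquitin-like protein, HERC6 is the mouse ligase that attaches it to targets, and USP18 removes it and also restrains IFNAR. Herc6 had the widest range of the 3 genes. Herc6 (chromosome 6, 57581000 to 57664632) had 42.3, 25.03 and 4.71 CPM, an 8.97-fold range (edgeR unadjusted p = 0.001, adjusted p = 0.161). Usp18 had 3.57, 3.26 and 0.730 CPM, and Isg15 had 2.64, 2.66 and 1.39 CPM from 40, 40 and 21 counts. All 3 genes were lowest in tumour 3, and for Usp18 and Isg15 tumours 1 and 2 had nearly the same level. The exact Poisson 95% interval of Isg15 was 1.89 to 3.60 CPM in tumour 1 and 0.862 to 2.13 CPM in tumour 3, which overlap. Of the Herc6 windows 12.5% also occur in other genes, mainly the overlapping gene Gm45193.

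The IFIT genes, whose products bind foreign RNA and block its translation, lie together on chromosome 19 between 34550694 and 34650009. Each was highest in tumour 1 and lowest in tumour 3. Ifit2 had 21.2, 7.12 and 5.24 CPM (edgeR adjusted p = 0.796), and Ifit1 had 7.27, 3.99 and 1.92 CPM (adjusted p = 0.997). Ifit3 had 55, 7 and 4 counts and Ifit3b had 14, 3 and 1, and neither passed the filter for low counts. Of their 50-base windows 51.2% and 45% also occur in another gene, nearly always the other of the pair, so their counts cannot be held apart with certainty.

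The OAS enzymes make 2′-5′ oligoadenylates that switch on RNase L. Oas3 (chromosome 5, 120753098 to 120777661), the member that senses long RNA, had the highest mean TPM of the family and 49.5, 19.4 and 8.69 CPM, a 5.69-fold range (edgeR unadjusted p = 0.004, adjusted p = 0.339). Oasl2, an OAS-like gene, had 17.9, 5.66 and 3.52 CPM (adjusted p = 0.746). Both were highest in tumour 1 and lowest in tumour 3, while Oasl1, which in the mouse represses Irf7 translation, had 3.96, 2.93 and 4.18 CPM. Oas2 had 92, 7 and 19 counts, or 6.08, 0.466 and 1.26 CPM. Oas1a had 17, 12 and 3 counts, and 57.6% of its windows are shared with Oas1g.

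**Figure D2:**
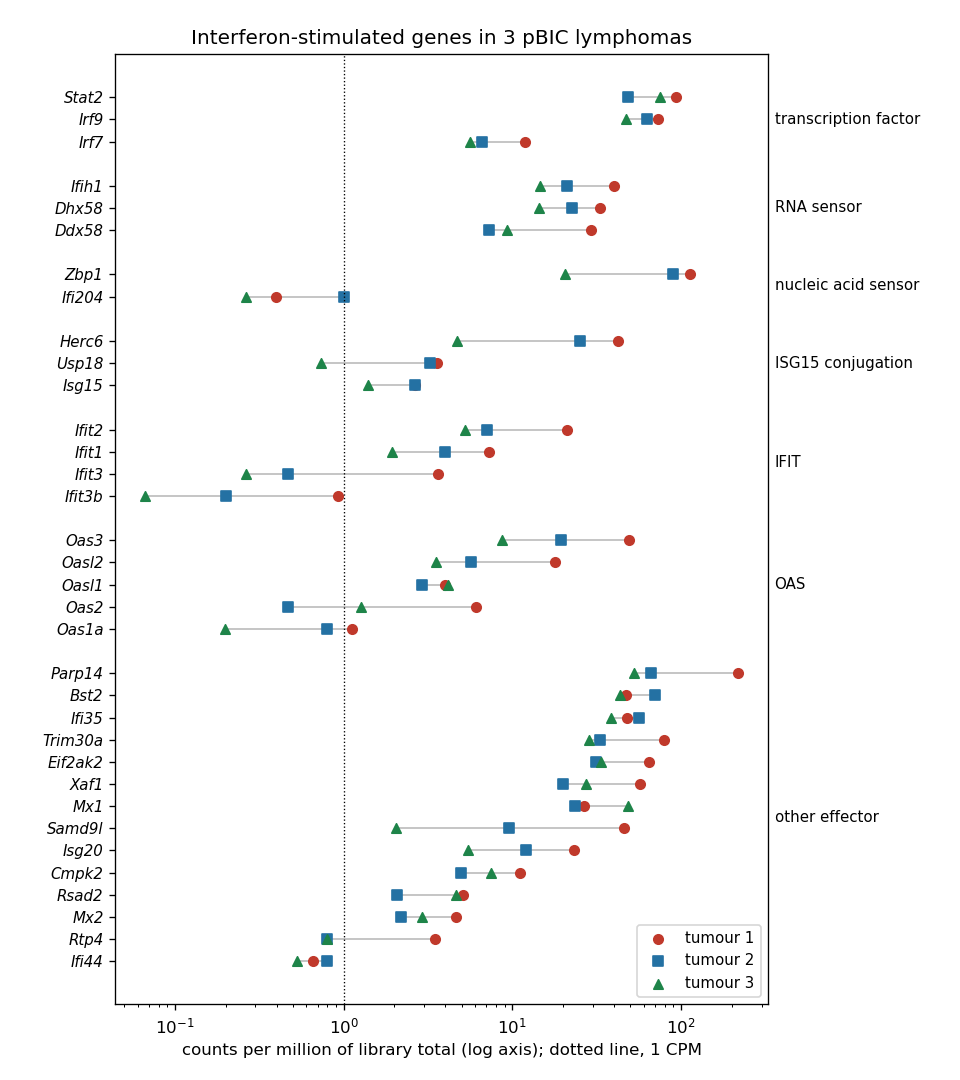
CPM of each of the 34 genes in tumours 1 (red circles), 2 (blue squares) and 3 (green triangles) on a log axis, grouped by role, with a grey line from the lowest to the highest tumour. The red circle is the rightmost point for 27 genes, and Samd9l has the longest line. The circle of Isg15 lies under its square.

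Effectors outside these families spanned the whole range of levels. Parp14 (chromosome 16, 35832874 to 35871544), an ADP-ribosyltransferase, had the highest mean CPM, and rank 4 by mean TPM, with 219, 66.5 and 52.7 CPM in tumours 1, 2 and 3. Tumour 1 stood 3.29-fold and 4.15-fold above the others (edgeR unadjusted p = 0.002, adjusted p = 0.227). Trim30a, a mouse regulator of Toll-like receptor signalling, showed the same shape with 79.5, 32.9 and 28.5 CPM (adjusted p = 0.706). Xaf1, an antagonist of the caspase inhibitor XIAP, had 56.9, 19.9 and 27.3 CPM, and Eif2ak2, which encodes the kinase PKR that halts translation on double-stranded RNA, had 64.5, 31.4 and 33.6 CPM. The adjusted p was 0.799 for Xaf1 and 0.989 for Eif2ak2 in the edgeR test.

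Samd9l (chromosome 6, 3372257 to 3399572, reverse strand), whose product inhibits translation and whose human counterpart restrains myeloid proliferation, varied most. It had 693, 143 and 31 counts, or 45.8, 9.52 and 2.06 CPM, in tumours 1, 2 and 3. Each step was more than 4-fold, and the exact Poisson 95% intervals, 42.4 to 49.3, 8.02 to 11.2 and 1.40 to 2.92 CPM, do not overlap. Samd9l was 1 of 16 genes past the threshold of 0.05 among the 11478 tested, which is 0.139% of them, and the only one of the 34 (edgeR adjusted p = 0.0490). The call depends on the processing: the edgeR adjusted p was 0.0504 with DESeq2 size factors and 0.147 with a filter on mean count, and it ranged from 5.08e-05 to 0.901 over all alternatives. It was 0.901 without tumour 1, 0.223 without tumour 2 and 0.436 without tumour 3.

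Of the remaining effectors, Bst2, Ifi35, Ifi44 and Mx1 were not highest in tumour 1, while Rsad2, Cmpk2, Isg20, Rtp4 and Mx2 were. Bst2, which encodes tetherin and holds budding virus at the cell surface, had 47.4, 69.9 and 43.4 CPM. Ifi35, a partner of the interferon-induced protein NMI, had 47.6, 56.0 and 38.3 CPM. Mx1, a dynamin-like GTPase gene that is defective in C57BL/6 and is listed as a polymorphic pseudogene, had 26.7, 23.4 and 48.5 CPM. Thus Bst2 and Ifi35 were highest in tumour 2 and Mx1 in tumour 3, with edgeR adjusted p of 0.997 for all 3. Rsad2 (viperin) and Cmpk2, a nucleotide kinase gene beside it on chromosome 12, had 5.09, 2.06 and 4.64 CPM and 11.0, 4.99 and 7.43 CPM, so both were lowest in tumour 2. The exonuclease gene Isg20 had 23.2, 11.98 and 5.44 CPM (unadjusted p = 0.048, adjusted p = 0.786 in edgeR). Rtp4, which encodes a receptor transporter protein, had 3.50, 0.799 and 0.796 CPM. Mx2, also listed as a polymorphic pseudogene, had 4.62, 2.20 and 2.92 CPM, and Ifi44 stayed below 1 CPM in every tumour.

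Levels of different genes can be set side by side only per length, as TPM, the count per length scaled to a common total, with union exon lengths from GENCODE M21. On that scale Bst2 led with 168, 221 and 143 TPM, followed by Ifi35 with 88.1, 92.6 and 65.9 TPM, and the lowest value of Bst2 exceeded the highest of Ifi35. Zbp1 followed with 102, 72.1 and 17.3 TPM and overlapped Ifi35. Parp14, Stat2, Trim30a and Irf9 came next at 37.5 ± 32.7, 37.2 ± 13.6, 35.1 ± 23.2 and 34.2 ± 8.73 TPM (SD, n = 3) and do not differ beyond their spread. Isg15, the gene of shortest union length in the set, had 8.91 ± 3.02 TPM, rank 16 of 34 against rank 28 by CPM. Ifi44, Ifi204, Ifit3b and Oas1a closed the list at 0.325 to 1.14 TPM. The transcripts present were not measured, and union lengths join the exons of all annotated transcripts.

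Tumour 1 had the highest level for most of the 34 genes and tumour 3 the lowest. The highest level fell in tumour 1 for 27 of them, and for 35.4% of the 11478 tested genes. Tumour 2 had it for 5, and for 30.2% of tested genes, and tumour 3 for 2, and for 34.5%. The lowest level fell in tumour 1 for 0 of the 34 genes and for 29.6% of tested genes. It fell in tumour 2 for 10, against 39.4%, and in tumour 3 for 24, against 30.9%. The full order of tumour 1 over 2 over 3 was seen in 19, where 16.1% of tested genes had it. Among the 28 of the 34 genes that were themselves tested, 23 were highest in tumour 1, 19 were lowest in tumour 3 and 16 had the full order. On the log2(CPM + 0.5) scale the median difference of tumour 1 minus tumour 3 was 1.27 over the 34 genes and 0.00 over all tested genes. Tumour 1 minus tumour 2 had a median of 0.93 against 0.09, and tumour 2 minus tumour 3 a median of 0.37 against -0.06. Genes of 1 pathway are not independent of each other, and each order comes from single libraries, so these counts describe 3 tumours and carry no test.

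**Figure D3:**
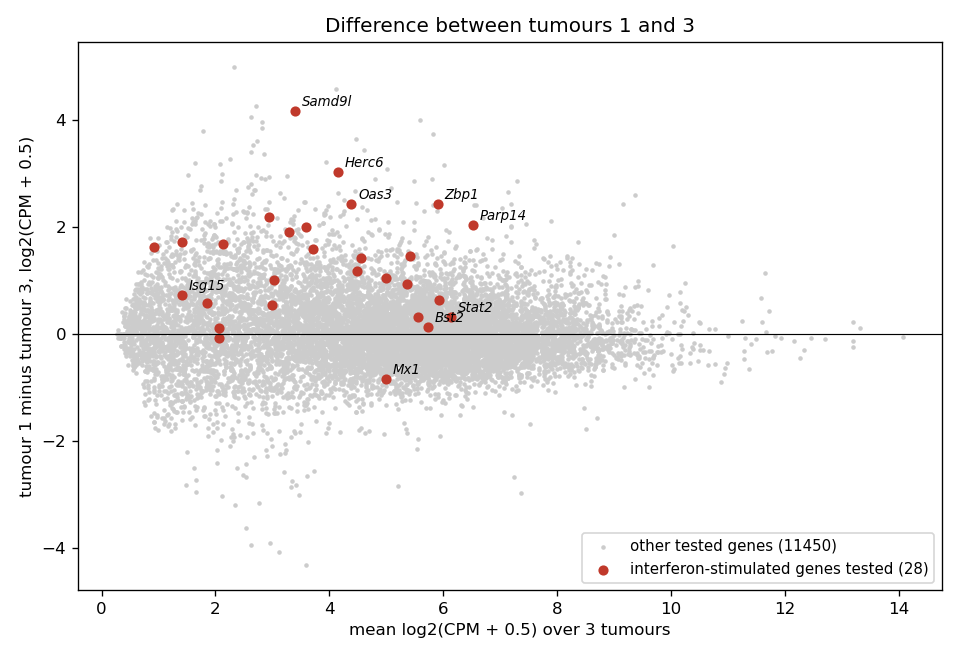
Difference of tumour 1 minus tumour 3 in log2(CPM + 0.5) against the mean over 3 tumours, for 11478 tested genes. The 28 interferon-stimulated genes among them are red and lie mostly above 0, up to 4.18 for Samd9l, with Mx1 below 0 at -0.85.

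The ranges were wide, although few calls followed. Of 34 genes 27 spanned more than 2-fold between the highest and the lowest tumour, where 29.2% of tested genes did. The number was 13 without tumour 1 and 17 without tumour 3. More than 4-fold was spanned by 14, where 5.51% of tested genes did, and 10.9% did when genes were filtered by a mean count of 10 instead. The 14 include Oas2, Ifit3, Ifit3b and Oas1a, which were not tested, and Ifit3b and Oas1a had 1 and 3 counts in tumour 3. Of the 28 tested among the 34, 22 passed 2-fold and 10 passed 4-fold. Without tumour 1 the number past 4-fold was 5, and it was also 5 without tumour 3. Leaving out a tumour can only keep or narrow a range, for any gene. The share of all tested genes was not taken in those cases, so these falls do not set the 34 genes apart. An unadjusted p under 0.05 was reached by 11 genes, where 6.27% of tested genes reached it, and by 3 without tumour 1 and 7 when the prior was not robust. The 6 genes Ifi44, Oas2, Oas1a, Ifit3b, Ifi204 and Ifit3 did not pass the filter that asks for a minimum count in every tumour and have no p.

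Other interferon-stimulated genes outside the set behaved alike in part. Of 50 listed, 49 were in the files and Trex1 was not analysed here. Of the 49, 44 were tested, 0 passed the adjusted threshold in edgeR and 10 had an unadjusted p under 0.05, where 6.27% of all tested genes had. In tumour 1 33 were highest, where 35.4% of tested genes were, and 25 were lowest in tumour 3, where 30.9% were. The highest by mean CPM were Shisa5 with 790, 670 and 598 CPM, Ly6a with 384, 628 and 310 CPM, and Gbp3 with 407, 408 and 176 CPM. The summed level of the 49 was 4793, 3956 and 3146 CPM in tumours 1, 2 and 3, a narrower span than the 1189, 663 and 515 CPM of the 34.

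Genes of the interferon gamma and IRF1 pathway were read beside them. They include Ifng, its receptor genes Ifngr1 and Ifngr2 and the kinase gene Jak2, as well as genes that respond to the pathway. Of 16 such genes, 15 were tested, 2 passed the adjusted threshold in edgeR and 7 had an unadjusted p under 0.05. Over all tested genes these shares were 0.139% and 6.27%. Those that passed were Gbp2b, with 129, 144 and 9.22 CPM in tumours 1, 2 and 3, and the chemokine gene Cxcl9, with 52.0, 101 and 5.70 CPM. Both were lowest in tumour 3 and highest in tumour 2, although tumours 1 and 2 lay close together for Gbp2b. Of the 16, tumour 2 had the highest level for 9 and tumour 1 for 6, and 10 had their minimum in tumour 3. Over all tested genes these shares were 30.2%, 35.4% and 30.9%. The highest by mean CPM, which does not allow for length, were Gbp2 with 1319, 1009 and 216 CPM, Irf8 with 455, 1175 and 911 CPM, and Tap1 with 648, 667 and 614 CPM. Ifng itself had 0.528, 1.46 and 0.199 CPM.

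The machinery that induces interferon was expressed, with 13 of 15 genes at 10 CPM or more in every tumour, against 30.5% of genes with a count. Unc93b1, the chaperone of endosomal Toll-like receptors, had 819, 681 and 770 CPM. Sting1, the adaptor of the DNA sensor cGAS, had 266, 291 and 209 CPM, while Cgas had 1.45, 0.865 and 0.464 CPM. Irf5 had 242, 269 and 221 CPM. None of the 13 tested genes passed the adjusted threshold in edgeR. An unadjusted p under 0.05 was reached by 1 of them, near the 6.27% of all tested genes. It was the DNA sensor Tlr9, with 169, 49.99 and 67.2 CPM (edgeR adjusted p = 0.510). Like many of the 34 genes it was highest in tumour 1.

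Markers of B cells and of other cell types were read in the same libraries. Of 10 B cell markers 9 were highest in tumour 1 and 7 lowest in tumour 3, with summed levels of 5623, 3350 and 3306 CPM. None of the 10 passed the adjusted threshold in edgeR, and 4 had an unadjusted p under 0.05. Among all tested genes 35.4% were highest in tumour 1, 30.9% were lowest in tumour 3 and 6.27% had such a p. Of 9 neutrophil markers 7 were highest in tumour 1 and 9 lowest in tumour 3, with sums of 59.6, 20.6 and 3.65 CPM, while Ly6g had at most 0.133 CPM. The 11 macrophage and monocyte markers summed to 30.6, 101 and 17.8 CPM, and 4, 6 and 1 of them were highest in tumours 1, 2 and 3. Among them Lyz2 passed the edgeR threshold, with 53.8 CPM in tumour 2, a large part of the sum there. The 10 T and natural killer cell markers summed to 27.9, 35.1 and 42.6 CPM, and 6 conventional dendritic cell markers to 13.5, 20.8 and 15.9 CPM, with Cd209a at 0 counts. Of plasmacytoid dendritic cells, the main interferon producers, Siglech had 0.727, 0.399 and 0.862 CPM and Klk1 at most 0.199 CPM. Pacsin1 had 113, 81.8 and 143 CPM, Ccr9 had 13.9, 6.66 and 32.6 CPM, and Cox6a2 had 2.58, 3.73 and 1.99 CPM. The sum over 6 markers, 649, 611 and 567 CPM, came mostly from Tcf4, which B cells also express. Its order is not that of most of the 6, since 4 were highest in tumour 3 and 1 in tumour 1. The part of other cell types or of the B cell markers in the order of the 34 genes was not tested. In bulk RNA, fewer cells of a type and less RNA per cell cannot be told apart.

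**Figure D4:**
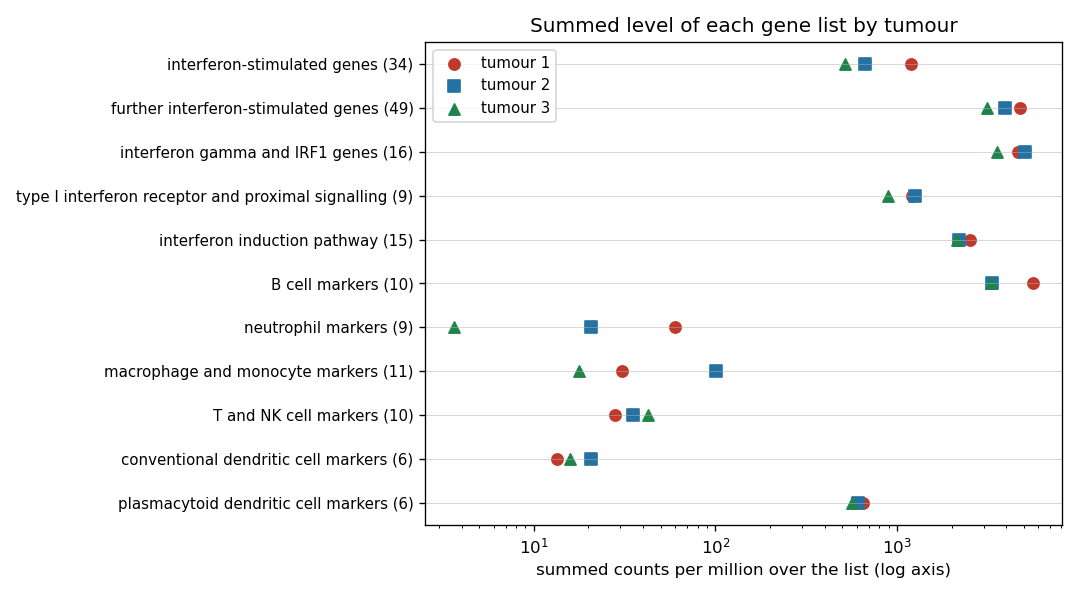
Summed CPM of each gene list in tumours 1 (red circles), 2 (blue squares) and 3 (green triangles) on a log axis, with the number of genes in the files in brackets. The 34 interferon-stimulated genes, the B cell markers and the neutrophil markers are highest in tumour 1, and the macrophage markers in tumour 2.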

How the data were processed

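The deposited tables hold raw counts for each gene from single-end 50 nt reads of polyadenylated RNA, 1 library per file, with no normalization by the authors. Per the submitters' processing notes, FastQC, STAR 2.5.2b and featureCounts 1.6.0 were used with mm10. Their settings, strand use and annotation release were not given in the sources. Totals ran from 15022902 to 15141009. Lengths and coordinates (1-based) come from GENCODE M21 (GRCm38, the assembly of mm10), where 37536 of 37646 gene IDs matched without their version. Levels are CPM of library totals. Windows of 50 nt were compared between GENCODE transcripts to find genes that share reads.

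With 1 group there is no contrast. An intercept-only edgeR 4.0.16 quasi-likelihood model (R 4.3.3, TMM factors 0.9595 to 1.023, filterByExpr) was fitted to 11478 genes, and each gene's deviance per residual degree of freedom, relative to the robust prior, was referred one-sided to F(2, 15.8). P-values were adjusted by Benjamini-Hochberg over all genes tested. The test was tried on simulated counts of 11478 genes, with a filter on mean count in place of filterByExpr. Of changes placed in 1 tumour in well-counted genes, 45.6% of 4-fold and 92.4% of 8-fold ones were recovered. Each simulated gene had the spread usual at its abundance and no scatter of its own. The shares may therefore overstate recovery in the real data, where the test with that filter called 0 genes. A run gave at most 9 false calls. Alternatives were other scalings, filters, priors, limma voom 3.58.1, a trend on length and GC content, and leaving out each tumour.

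The genes and the lists were chosen with earlier results of these data known. Values in every tumour are given for the most abundant and most variable genes and for the transcription factors, RNA sensors and ISG15 genes, and for most others after their values were seen. From the other lists, the rule named genes past the threshold and the 3 highest by mean CPM, but it was not carried through for the induction, signalling and cell type marker lists, where the genes shown were chosen after their values were seen. 1 gene of the signalling list is not reported here.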

Additional observations from a re-analysis of the deposited data

How the results depend on the processing

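The calls depended on the processing and on single tumours, and the number of wide ranges fell or stayed with a tumour left out. The number of genes past the adjusted threshold was 16 in the edgeR test and 15 with DESeq2 size factors. It was 0 with library totals only, with a mean count of at least 10, without a robust prior and with the length and GC trend removed, where 711, 781, 571 and 674 genes had an unadjusted p under 0.05. It was 8 with limma voom, 164 with no filter, where the estimated prior had infinite degrees of freedom, and 74 when the trend was not centred per library, an alternative chosen after seeing the data. Leaving out 1 tumour gave 0 to 11. Of the 34 genes 1 passed, and 0 did with DESeq2 size factors, library totals, the mean filter, limma voom, the prior without robust estimation, the centred trend or any 1 tumour left out. With no filter 4 passed (Samd9l, Herc6, Zbp1 and Parp14) and with the trend not centred 2 did (Samd9l and Zbp1). The causes were not tested. The number of genes past 2-fold was 27, and 13 to 21 with 1 tumour left out, where a range can only stay or narrow. Past 4-fold it was 14, and 5 to 14 with 1 tumour left out. Over the scalings, 27 to 29 genes were highest in tumour 1 and 22 to 24 were lowest in tumour 3. The scalings include a length and GC trend chosen after seeing the data. With 1 tumour left out, 29 to 32 were highest in tumour 1 and 24 to 32 lowest in tumour 3. Leaving out another tumour cannot lower either number, so it does not test the order. The median level was 12.4 CPM, and 6.20 to 15.9 CPM with 1 tumour left out. The share of promoters with the element was 52%, and 32% with the stricter core. DESeq2 tests a contrast, so only its size factors were used. No paired analysis was possible because there is 1 group. The 6 genes without a p had a mean of at most 2.60 CPM and fell short of the minimum count in at least 1 tumour. Oas2 was dropped in this way at 92, 7 and 19 counts, while Usp18, Isg15 and Rtp4, with lower means, were tested. The filter can thus remove genes that are high in a single tumour.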
